A study of Mus musculus with 6 samples.

Results

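The genes described here encode the trains that move cargo inside cilia and the gate at the cilium base. They are the subunits of intraflagellar transport (IFT) complexes A and B, the dynein-2 motor, the BBSome with its GTPase Arl6 and its chaperonins, proteins of the transition zone, and proteins of the ciliary shaft and membrane such as Arl13b. Members were chosen by gene symbol. The rule took names beginning Ift, Bbs, Tctn or Nphp followed by a number, and the B9 and MKS genes B9d1, B9d2 and Mks1. It also took 9 further subunits named singly. No measured value was part of the rule, though it was set with earlier results of these data known. The rule gave 41 of the 55487 genes in the deposited table. Of these, 40 passed the filter on low counts and were tested among 17278 genes. The member left out of the test was Ift88os, an antisense transcript of the Ift88 locus, with normalized counts of 4.01, 6.61 and 3.03 in the THC libraries and 0.976, 11.8 and 2.90 in the TKO libraries.

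RNA was sequenced from cells sorted for YFP from the mouse subventricular zone (SVZ), the neurogenic niche that lines the lateral ventricle. Both groups carried NestinCreERT2, a tamoxifen-inducible recombinase driven by Nestin regulatory sequence, and the R26 EYFP reporter, on a mixed C57BL/6;Sv/129 background. The THC group had the genotype Rb(F/+);p107(+/-);p130(F/+) and the TKO group Rb(F/F);p107(-/-);p130(F/F), where F is a floxed allele. THC is therefore not wild type: its p107 minus allele is not a floxed one, and recombination can remove 1 copy of Rb and 1 of p130. Mice of both groups were 6 to 10 weeks old at the start and received tamoxifen by gavage at 200 mg/kg per day for 5 days, with dissection 10 days after dosing ended. Several mice were pooled for each library to reach a minimum of 200000 sorted cells. Each group had 3 libraries, of which replicate 1 belonged to a batch labelled February, and replicates 2 and 3 to a batch labelled November. The series title concerns the quiescent and activated states of adult neural stem cells, and the comparison made here sets the cilium machinery of TKO cells against that of THC cells, beside the genes of the cell cycle.

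A primary cilium is an antenna-like projection of the plasma membrane that most non-dividing cells, neural stem cells included, grow from the mother centriole. IFT trains, which hold both complexes, carry cargo to the tip when pulled by kinesin-2 and return it when pulled by dynein-2. The BBSome couples membrane receptors to these trains, and the transition zone controls which proteins pass between the cell body and the cilium. Cells usually take the cilium apart before mitosis and regrow it afterwards, and multiciliated ependymal cells of the ventricle wall use the same machinery to build many motile cilia.

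Ciliary genes often have an X-box near their start, the element bound by RFX transcription factors. Promoter windows of RefSeq (build GRCm38.p6, 250 bases before to 50 bases after each start) were matched by symbol for 34 of the 41 members. The X-box was searched on both strands as GTNNCC and NGNAAC separated by 0 to 3 bases, that is GTNNCCNGNAAC, GTNNCCNNGNAAC, GTNNCCNNNGNAAC or GTNNCCNNNNGNAAC. At least 1 match lay in the windows of 12 members (35.3%), against 5.94% of the 27025 genes in the promoter table and 7.31% of the 12151 tested genes with a window. These 12 members held 14 matched sites. The following sites are shown because they sit in members whose counts rose (Ift74, Nphp4), fell (Bbs4) or did not pass the test (Bbs7, Mks1, Tctn3). Letters run 5′ to 3′ on the strand of the gene, and capitals mark the match. The Nphp4 site belongs to the window of an annotated start inside the gene.
Ift74: cggtgaccGTTGCTAGGATACgcggcgtc
Nphp4: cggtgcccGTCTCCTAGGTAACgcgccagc
Bbs4: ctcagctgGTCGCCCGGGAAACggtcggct
Bbs7: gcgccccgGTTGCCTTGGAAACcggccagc
Mks1: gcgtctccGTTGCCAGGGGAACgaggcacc
Tctn3: tcccagcgGTTGCCAGGTAACgggaacca
Ift22, called higher in TKO, held 2 sites in a single window, and the whole stretch upstream of its start (chr5:136907900-136908149, plus strand, GRCm38.p6) is printed to show their spacing, with capitals at both sites.
Ift22 upstream: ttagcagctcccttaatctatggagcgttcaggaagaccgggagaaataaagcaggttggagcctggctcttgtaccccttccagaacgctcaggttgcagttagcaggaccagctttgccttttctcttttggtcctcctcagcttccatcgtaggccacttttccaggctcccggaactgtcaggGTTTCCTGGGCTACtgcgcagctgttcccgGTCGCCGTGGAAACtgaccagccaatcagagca
The site of Ift74 began 5 bases before its start, so that it spans the start itself (chr4:94614241-94614498, plus strand, GRCm38.p6).
Ift74 upstream: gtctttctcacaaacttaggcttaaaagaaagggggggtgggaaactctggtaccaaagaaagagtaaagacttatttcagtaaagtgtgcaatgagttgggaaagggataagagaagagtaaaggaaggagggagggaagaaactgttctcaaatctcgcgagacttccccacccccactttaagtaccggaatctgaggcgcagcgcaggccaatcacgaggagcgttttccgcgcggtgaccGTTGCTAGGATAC
Matches were found in 4 of the 9 called members with a window (44.4%) and in 8 of the 25 members not called (32%). The windows of cell-cycle genes were searched in the same way. Of 24 S phase genes with a window, 0 held an X-box match and 8 (33.3%) held an E2F motif (TTTCCCGC or TTTGGCGC, either strand). The E2F motif was held by 1 member of 34 (Ift27, 2.94%), 1.80% of all genes in the table and 3.20% of tested genes with a window. Of 27 G2/M genes, 3 (11.1%) held an X-box match, and 22 (81.5%) held the CHR element of mitotic promoters (TTTGAA or TTCGAA, either strand). The CHR element was held by 1 member (B9d2, 2.94%), 21.7% of all genes in the table and 16.5% of tested genes with a window. None of these motifs is contained in another, and a site that matched on both strands was counted once. A match describes letters in a window only.

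Libraries held 15536084 to 16961817 reads on genes. Of the targeted genes, Rbl1, which encodes p107, had normalized counts of 497 to 646 in THC and 14.5 to 42.0 in TKO. Rb1 was 1.77-fold higher in TKO (log2 change 0.82 ± 0.13 SE, limma adjusted p 0.00066) and Rbl2 did not pass the test (log2 change -0.13). Counts over a whole gene include exons outside the floxed part, so Rb1 and Rbl2 do not check recombination. Markers of several other cell types were present and moved with genotype: 6 of 6 oligodendrocyte markers (median log2 change -2.32), 6 of 6 endothelial and mural markers (median -1.40) and 6 of 8 neuroblast markers (median -0.63) were lower in TKO. Of 10 quiescent stem cell and astrocyte markers 5 were lower and 1, Gfap, was higher, and of 6 microglia markers 2 were higher. Both February libraries stood apart in the microglia markers, whose summed normalized count was 2577 in February THC against 520 and 286 in November THC, and 4236 in February TKO against 1025 and 541 in November TKO. Of 12 ependymal markers, 11 were tested and 4 were lower. The February THC library also stood apart in the ependymal markers, whose summed normalized count was 5449 there and 18181 and 15801 in the November THC libraries, against 8368, 6781 and 8995 in TKO. No marker of these lists was at 0 in any library except Mia, the ependymal marker not tested. The part of these cell types in the members' values was not tested. In bulk RNA, a change in the number of cells of a type and a change in RNA per cell cannot be told apart.

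Among the cilium genes 11 changed between genotypes, most of them by less than 2-fold. With limma on log2(normalized count + 1), batch as a covariate and Benjamini-Hochberg adjustment over all tested genes (called at an adjusted p under 0.05), 8 members were higher in TKO and 3 lower, and 29 did not pass. The called share was 27.5% of the 40 members, against a background of 27.9% of all genes (14.3% higher and 13.6% lower), so the members were called about as often as all genes. The median log2 change of the members was 0.21, against a median of 0.00 over all genes, and the median absolute change was 0.31, against 0.36. Of the members 28 lay above 0 and 12 below. Changes ran from -0.69 (Bbs4) to 1.52 (Nphp4), and 2 members, Ift80 and Nphp4, changed by more than 2-fold. In 15 members every TKO library was above every THC library, against 19.4% of all genes, and in 3 every TKO library was below, against 19.5%. Members were well expressed, with mean normalized counts of 122 to 2283 (median 867, against 351 for all tested genes).

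**Figure D1:**
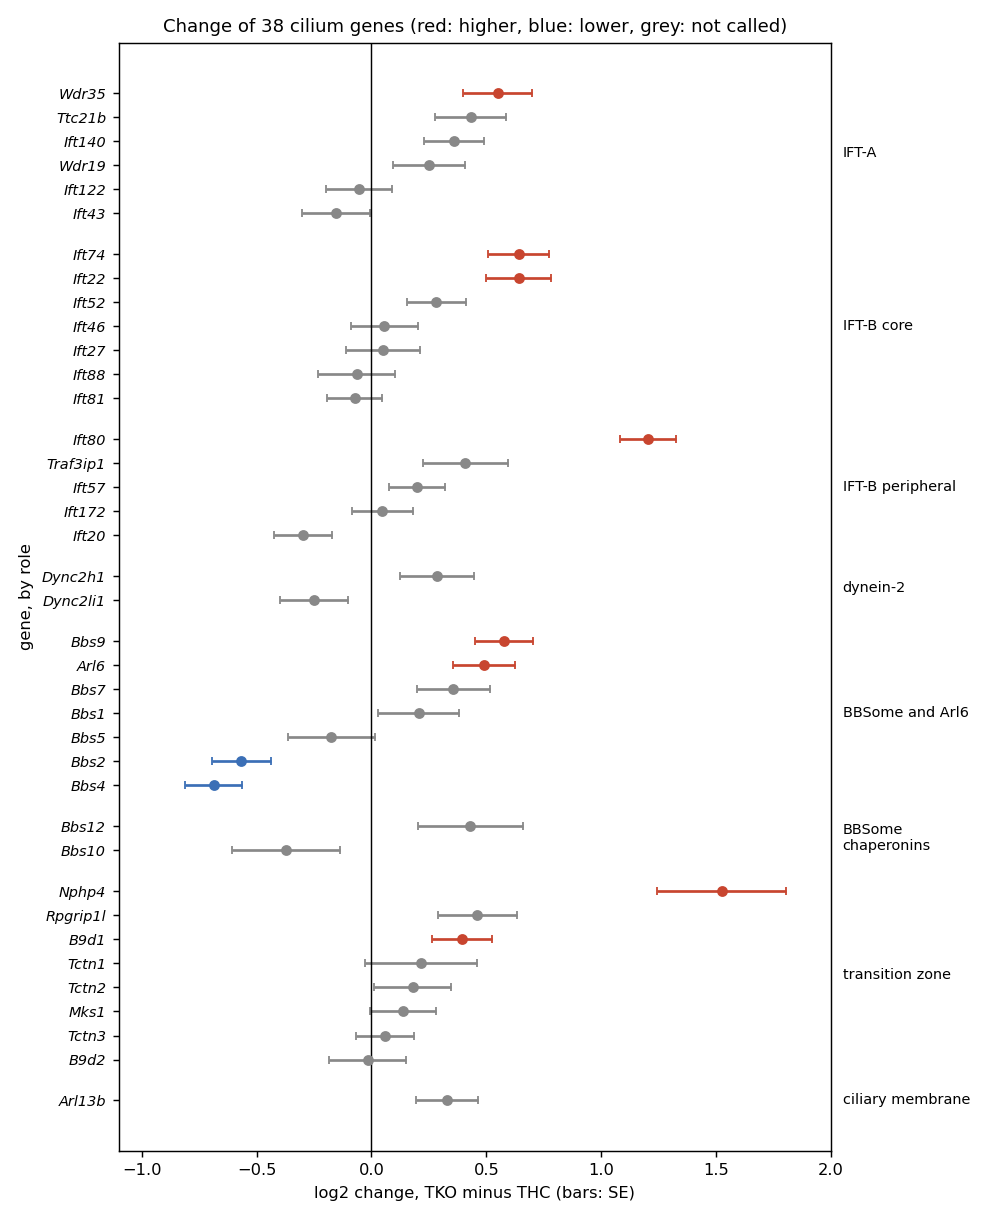
Log2 change between TKO and THC for 38 of the 40 tested cilium genes, grouped by role, with bars of 1 standard error from limma. Most genes lie between -0.5 and 0.5, and Ift80 and Nphp4 stand at 1.20 and 1.52.

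The IFT-A complex had 1 of 6 members called (16.7%, against 27.9% of all genes). Wdr35 (IFT121, a peripheral IFT-A subunit, chr12:8973892-9028847, plus strand) had the highest mean normalized count of all members over the 6 libraries (2283), with 1608, 1757 and 2211 in THC 1, 2 and 3 and 3084, 2455 and 2586 in TKO 1, 2 and 3. Every TKO library was above every THC library, and the TKO library of February was the highest. The log2 change was 0.55 ± 0.15 (SE, adjusted p 0.017). The call ended without THC 1 or without TKO 1 (0.35, adjusted p 0.16 in both) and without THC 2 (0.51, adjusted p 0.052). Ttc21b, a peripheral IFT-A subunit also known as THM1, had nearly constant counts within each group, 276, 280 and 281 in THC and 374, 377 and 379 in TKO, and its log2 change of 0.43 missed the threshold (adjusted p 0.056). The core subunits Ift140 and Wdr19 (IFT144) had log2 changes of 0.36 and 0.25, and Ift122 was at -0.05 with a 95% interval of -0.37 to 0.26. Ift43, the small subunit with the most counts per kilobase of exon in THC among all members, was at -0.15.

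The IFT-B complex had 3 of 12 members called, all higher in TKO. This share of 25% was close to the 27.9% of all genes. Ift80, a peripheral IFT-B subunit (chr3:68892499-69004570, minus strand), gave the smallest adjusted p of all members. Its counts were 910.1, 987 and 1122 in THC and 2288, 2318 and 2322 in TKO, so the groups were far apart and the TKO libraries nearly equal. The means were 1006 ± 107 and 2309 ± 18.7 (SD, n = 3 each), and TKO exceeded THC by a log2 of 1.20 ± 0.12 (SE, limma adjusted p 2.2e-05). Per kilobase of exon, Ift80 rose from 81.0 to 186 normalized counts, which moved it from below to above the THC median of the members, 142.

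In the IFT-B core, Ift74 and Ift22 rose, each 1.56-fold. Ift74 forms a tubulin-binding module with Ift81 (Ift74 at chr4:94614491-94693229, plus strand). It had counts of 918, 906 and 1169 in THC and 1531, 1585 and 1522 in TKO, with no overlap. TKO exceeded THC by 0.64 ± 0.13 on the log2 scale (SE, limma adjusted p 0.0036). Its partner Ift81 had a log2 change of -0.07, with a 95% interval of -0.33 to 0.18. Ift22, a small GTPase-like subunit formerly named Rabl5 (chr5:136908150-136915404, plus strand), had counts of 964, 1349 and 1454 in THC and 1965, 1885 and 1936 in TKO. Its groups did not overlap, and the February THC library was the lowest. The log2 change was 0.64 ± 0.14 (SE, adjusted p 0.0050), and it missed the threshold without THC 1 (0.45, adjusted p 0.056) or without TKO 1 (0.45, adjusted p 0.055).

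Of the core subunits not called, Ift88, the subunit deleted in many studies to remove cilia, had a log2 change of -0.06 with a 95% interval of -0.43 to 0.30. Ift52, Ift46 and Ift27 were at 0.28, 0.06 and 0.05. Among peripheral subunits, Ift172 was at 0.05 (95% interval -0.24 to 0.34), Ift57 at 0.20 and Traf3ip1 (IFT54) at 0.41 (adjusted p 0.12). Ift20, which also sits at the Golgi and sorts membrane proteins towards the cilium, was at -0.30 (adjusted p 0.10).

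Neither subunit of dynein-2, the motor of return transport, was called. Its heavy chain Dync2h1 had counts of 1217, 942 and 927 in THC and 1097, 1153 and 1521 in TKO, and these ranges overlapped. The log2 change was 0.29 ± 0.16 (SE, adjusted p 0.22, 95% interval -0.07 to 0.64). The light intermediate chain Dync2li1 was at -0.25 (95% interval -0.57 to 0.07).

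The BBSome was split, with 2 genes called higher and 2 lower of the 7 in its group with Arl6 (57.1% called, against 27.9% of all genes). Bbs4 (chr9:59321990-59353508, minus strand) encodes a subunit carried on pericentriolar satellites and added late to the complex. Its counts were 1161, 1074 and 1117 in THC and 789.6, 650.2 and 650.9 in TKO, without overlap, and its log2 change was -0.69 ± 0.12 (SE, adjusted p 0.0015). Bbs2 (chr8:94067954-94098928, minus strand), a core subunit, had counts of 975, 936 and 811 in THC and 667, 578 and 591 in TKO, again without overlap. Its log2 change was -0.57 ± 0.13 (SE, adjusted p 0.0064).

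Bbs9 (chr9:22475715-22888280, plus strand), a scaffold of the BBSome core that binds other subunits, moved the other way. Its counts were 597, 607 and 599 in THC, the tightest THC group of the called members, and 890.1, 949 and 856 in TKO, which is a log2 difference of 0.58 ± 0.13 (SE, limma adjusted p 0.0052). Arl6 (chr16:59612949-59639391, minus strand), the GTPase that recruits the BBSome to membranes, had counts of 714, 848 and 1078 in THC and 1106, 1264 and 1297 in TKO. The groups came close, with THC 3 at 1078 and TKO 1 at 1106, and the log2 change was 0.49 ± 0.13 (SE, adjusted p 0.017). The Arl6 call ended without THC 1 or TKO 1 (0.42, adjusted p 0.094), without THC 2 (0.41, adjusted p 0.069) and without TKO 3 (0.50, adjusted p 0.053).

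The other BBSome subunits did not pass: Bbs7 was at 0.36, Bbs1 at 0.21 and Bbs5 at -0.17. The chaperonin-like proteins that assemble the BBSome core lay on either side of 0. Bbs12 had counts of 189, 139.8 and 151 in THC and 168, 228 and 258 in TKO, with overlapping groups. It differed by 0.43 ± 0.23 on the log2 scale (SE, limma adjusted p 0.19), and it passed without THC 1 or TKO 1 (0.73, adjusted p 0.041 and 0.039). Bbs10 was at -0.37.

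At the transition zone 2 of 9 genes were called (22.2%, against 27.9% of all genes), both higher in TKO. Nphp4 (chr4:152476706-152563183, plus strand), a transition zone protein that binds Rpgrip1l, had the largest change of any member. Its counts were 51.1, 55.7 and 79.8 in THC and 234, 152 and 157 in TKO. It was the least abundant member per kilobase of exon in THC (10.3 normalized counts), and every TKO library exceeded the highest THC library. The log2 change was 1.52 ± 0.28 (SE, adjusted p 0.0017), and the difference was 2.17 in the February pair and 1.20 in November. B9d1 (chr11:61505144-61512931, plus strand), a B9-domain protein of the MKS module, had counts of 647, 755 and 856 in THC and 957, 987 and 1006 in TKO. Its log2 change was 0.39 ± 0.13 (SE, adjusted p 0.040), the weakest call of the set. That call ended on leaving out any 1 library but THC 3, with adjusted p of 0.20 without THC 1, 0.11 without THC 2, 0.20 without TKO 1, 0.081 without TKO 2 and 0.090 without TKO 3.

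The remaining transition zone genes did not pass. Rpgrip1l, a scaffold of the zone, was at 0.46 (adjusted p 0.064), and without THC 1 or TKO 1 it passed at 0.61 (adjusted p 0.043 and 0.044). The tectonic genes Tctn1, Tctn2 and Tctn3 were at 0.22, 0.18 and 0.06. Mks1 was at 0.14 (95% interval -0.17 to 0.45), and B9d2, which binds B9d1 and Mks1, at -0.02.

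Arl13b, the GTPase of the ciliary membrane used as a cilium marker, had counts of 507, 459.9 and 486 in THC and 603, 599 and 624 in TKO. Although its groups did not overlap, its log2 change of 0.33 ± 0.13 (SE) missed the threshold (adjusted p 0.091, 95% interval 0.04 to 0.62).

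**Figure D2:**
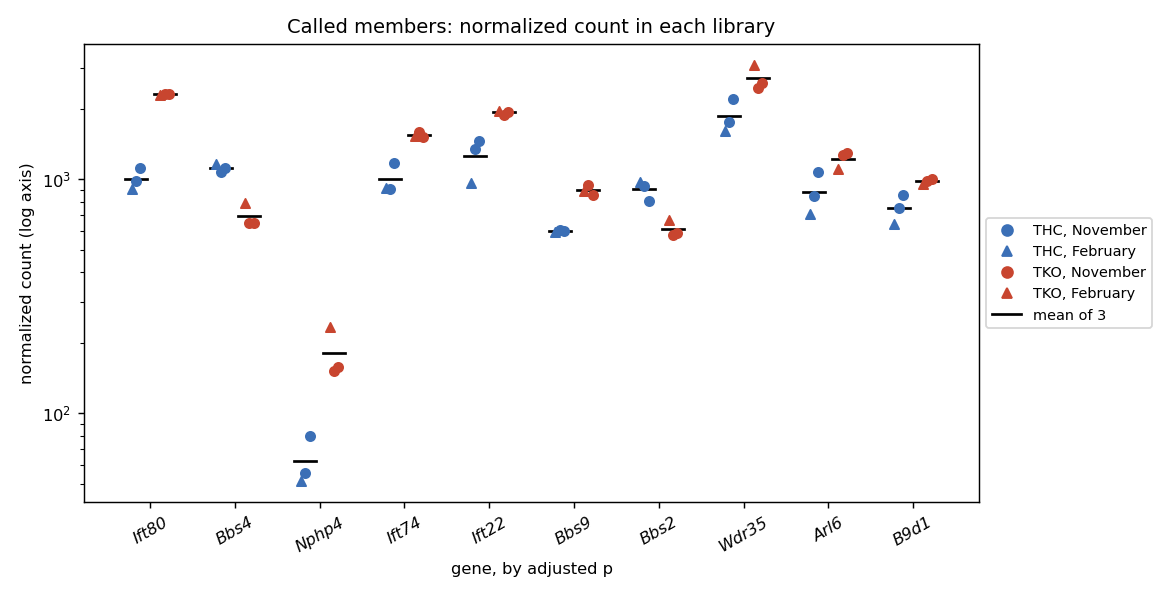
Normalized counts of 10 of the 11 called members in each library on a log axis, with black bars at the mean of 3. Triangles are the February libraries and circles the November libraries. In each of these genes the 2 groups do not overlap, and the distance is widest for Ift80 and Nphp4.

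The authors' deposited table, from a DESeq2 analysis per the submitters' processing notes, also calls 8 members higher and 3 lower at an adjusted p under 0.05, and all 11 are those called here. It was made from the same libraries and is no independent evidence.

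Some members share a start region with a neighbour on the opposite strand. In GENCODE M21 (GRCm38), 13 members had such a neighbour starting within 1000 bases upstream or overlapping by up to 200 bases. Of these neighbours 11 were tested and 2 were called, while 27.9% of all genes were called. Smc4, a condensin subunit that compacts mitotic chromosomes, starts 168 bases from Ift80. Its counts were 3461, 2753 and 4150 in THC and 9528, 11794 and 10267 in TKO, which is a log2 difference of 1.62 ± 0.17 (SE, limma adjusted p 2.3e-05). The member with the smallest adjusted p lies beside this gene, which rose 3.08-fold. A link between the changes of Ift80 and Smc4 was not tested. The other called neighbour was Mbd4, a DNA repair glycosylase that starts 99 bases from Ift122. Mbd4 rose by a log2 of 0.68 ± 0.13 (SE, adjusted p 0.0026), while Ift122 stood at -0.05. No neighbour of the remaining members was called, among them Tnfaip1 beside Ift20 and Dcun1d5 beside Dync2h1. The libraries are not stranded, and reads from overlapping exons cannot be told apart. Beside Ift88os, 7 members share exon bases with another annotated gene, up to 19.0% of the exon length for Tctn1 (with Hvcn1) and 3.21% for Bbs4 (with Adpgk, log2 change 0.25, not called). Ift80 and Smc4 share no exon bases.

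Nearly every cell-cycle gene examined rose in TKO, most by more than 2-fold. Of 30 S phase genes, 29 rose in TKO (median log2 change 1.34, range 0.58 to 2.11), and Fen1 did not pass (0.58, adjusted p 0.36). Fen1, which sets the low end of this range, lay near the filter minimum of 10. Its mean normalized counts were 15.1 in THC and 23.3 in TKO, and every TKO library was above every THC library. With a 95% interval of -0.36 to 1.53, its missing call does not show that Fen1 stayed level. All 30 G2/M genes rose (median 1.54, range 1.01 to 2.64). Both lists were chosen with earlier results of these data known. Among the S phase genes with the smallest adjusted p, Gins2, a subunit of the replicative helicase complex, went from 257 ± 53.9 to 1054 ± 229 normalized counts (SD, n = 3 each). The mitotic gene Ckap2 rose 6.24-fold and Ccnb2, cyclin B2, 3.99-fold. Averaged over genes on the log2 scale and set to 0 at the THC mean, the S phase genes stood at -0.15, -0.17 and 0.31 in THC and at 1.33, 1.47 and 1.24 in TKO. On the same scale the 40 members stood at -0.13, 0.05 and 0.08 in THC and at 0.24, 0.16 and 0.18 in TKO. The member average was thus higher in each TKO library than in each THC library, and its distance from THC was smaller than that of the S phase genes. Within the set, the 7 genes of the BBSome with Arl6 overlapped between groups (-0.13, 0.07 and 0.07 in THC, 0.12, -0.00 and -0.03 in TKO), and the 9 transition zone genes did not (-0.20, 0.05 and 0.15, against 0.42, 0.26 and 0.42).

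**Figure D3:**
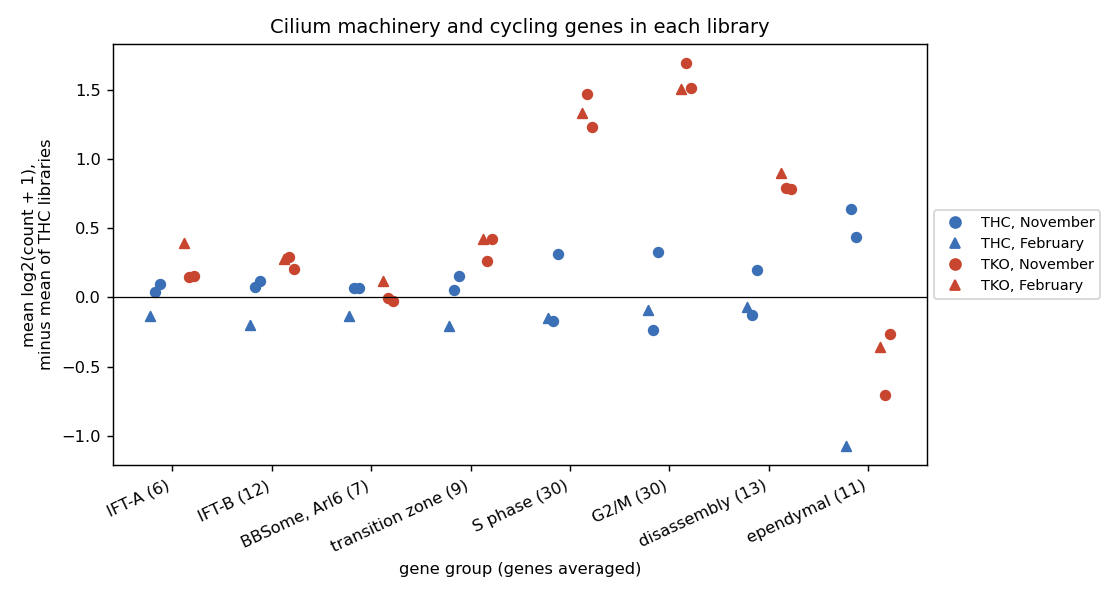
Mean log2(normalized count + 1) of each gene group in each library, minus the mean of the THC libraries, with the number of genes in brackets. The S phase and G2/M groups lie above 1.2 in the TKO libraries, the transport and transition zone groups below 0.5, and the ependymal markers are lowest in the February THC library.

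A further list held genes of cilium disassembly and of the centrosome, several of which are cell-cycle genes themselves. Of these 13 genes, 8 rose in TKO and 0 fell (median 0.94). Plk4, the kinase of centriole duplication, went from 1062 ± 205 to 3493 ± 208 normalized counts (SD, n = 3 each), and Nek2 and Kif24, which act together to disassemble or block the cilium, rose by log2 changes of 1.55 and 1.81. Nde1, a brake on cilium length, went from 2868 ± 261 to 5727 ± 345. Hdac6 and Nedd9, which act with Aurka in cilium resorption, did not pass (-0.03 and 0.08), whereas Aurka itself rose by 0.94.

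Other cilium genes, outside the naming rule, were examined as 2 lists. Of 22 further IFT, BBSome and dynein-2 genes, 3 were higher and 1 lower (18.2% called, against 27.9% of all genes), with a median of 0.00. Those were Tctex1d2, a light chain of dynein-2 (log2 change 0.68, adjusted p 0.0052), Lztfl1, a regulator of BBSome entry (0.46, adjusted p 0.022), Ttc30a1, the IFT70 subunit of IFT-B (0.54, adjusted p 0.043, a gene with a near-identical copy, so its counts are uncertain), and Kif3c, a kinesin-2 motor (-0.63, adjusted p 0.010). Of 29 further transition zone and ciliary membrane genes, 6 were higher and 0 lower (20.7% called, against 27.9% of all genes), with a median of 0.11. The distal appendage genes Cep89 and Sclt1, which dock the mother centriole to the membrane, rose by 1.03 and 0.83, and Tmem107 and Tmem237, membrane proteins of the transition zone, by 0.96 and 0.61. Of 11 RFX factors and regulators of ciliogenesis, 3 were higher (27.3% called), which is about the share of all genes, 27.9%. Mcidas, a switch for multiciliated cells, was near the detection limit, at 0, 4.72 and 0 in THC and 22.4, 22.6 and 23.2 in TKO. Gmnc and Myb, which act in the same programme, rose by log2 changes of 0.97 and 0.76. The Gmnc difference was 1.35 in the February pair and 0.79 in November, and that of Myb 1.45 and 0.41. Foxj1, the regulator of motile cilia, did not pass (0.54, adjusted p 0.16), with counts of 289, 746 and 684 in THC and 926, 689 and 714 in TKO.

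Differences were then taken within each batch. The median log2 difference of the members was 0.36 in the February pair, 1 library against 1, and 0.08 in November, 2 against 2. Of the 40 members, 31 had a higher signed difference in February than in November. This count includes negative differences nearer to 0 in February, such as Bbs4 (-0.56 in February, -0.75 in November). Above 0 lay 33 members in February and 22 in November, and 15 had opposite signs in the batches. All 11 called members had the same sign in both. Ift88 was at 0.40 in February and -0.30 in November, and Bbs12 at -0.17 and 0.73. A test of the genotype-by-batch interaction called 0 of 40 members with limma (lowest adjusted p 0.476, and 8 members at an unadjusted p under 0.05), against 0.341% of all genes. The median of the S phase genes was 1.49 and 1.27 in the batches and that of the G2/M genes 1.57 and 1.56.

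The ependymal markers also split by batch, with a median difference of 0.87 in February and -0.94 in November, and 5 of 11 were called in the interaction test. In the February THC library the members too were at their lowest average (-0.13), as were IFT-A (-0.13), IFT-B (-0.20) and the transition zone (-0.20). The part of the ependymal markers in the members' levels was not tested. Without that library the members had a median log2 change of 0.08, with 6 called higher and 2 lower. The batch term then takes up the remaining February library, TKO 1, so this fit rests on the November libraries. The fit without TKO 1 rests on them too and gives the same changes, so the result is not particular to THC 1. Of the 11 calls, 6 (Ift80, Bbs4, Nphp4, Ift74, Bbs9 and Bbs2) held without THC 1, as they did under each other alternative run.

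**Figure D4:**
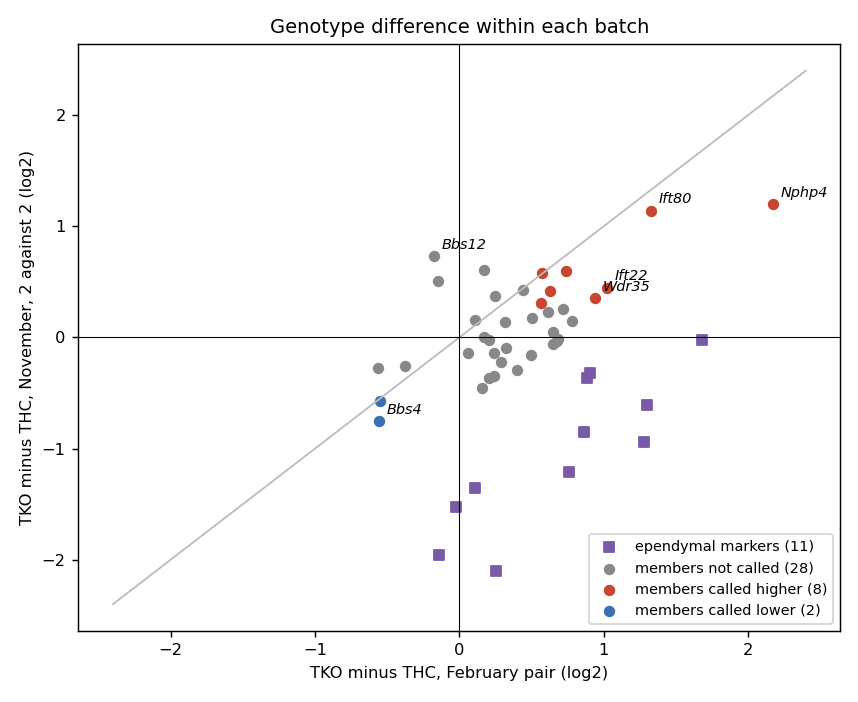
Genotype difference of 38 of the 40 members (circles) and each ependymal marker (squares) in the February pair and in the November libraries, on the log2 scale. The grey line marks equal differences. The called members drawn lie in the quadrants of equal sign, and the ependymal markers lie below the line.

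Per kilobase of exon, the levels in THC ran from 10.3 normalized counts (Nphp4) to 565 (Ift43), with a median of 142. Ift43, Ift20 (520.4) and Dync2li1 (519) were the most abundant, and Nphp4, Rpgrip1l (17.6) and Tctn1 (17.9) the least. By role, the median was 331 for the IFT-B core, 291 for dynein-2, 143 for IFT-A, 142 for peripheral IFT-B and for the BBSome with Arl6, 112 for the transition zone and 55.9 for the chaperonins, and Arl13b stood at 95.2. By this measure, subunits of 1 complex differed in level per length by more than most of them differed between genotypes. Lengths are unions of all annotated exons, such as 14.7 kb for Rpgrip1l and 8.3 kb for Tctn1, and can exceed the transcript expressed. The part of exon annotation in these levels was not tested.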

How the data were processed

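Total RNA of sorted cells was made into SMART-Seq v4 and Nextera XT libraries, per the labels' protocols, and RNA was kept at a quality number of at least 8.0 and an input of at least 35 ng. The submitters' processing notes name HISAT2, featureCounts, Subread, DESeq2 and GRCm38, with no version given in the sources used here. The authors' deposited table holds a normalized count per library, a signal scaled by 1 factor per library. Per the file headers, it also holds log2 fold changes with their errors, p-values and adjusted p-values, a test score and a weight score. All values were whole multiples of 1 step per library within 0.001, and dividing by it gave the read totals.

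Groups, replicate numbers and batches came from the labels. Nothing names the mice of each pool, so p-values measure the spread between these pools. Normalized counts were taken as log2(value + 1), so that changes of low genes are understated, and tested with limma 3.58.1 in R 4.3.3 (trend, batch and genotype, 3 residual degrees of freedom plus 8.90 prior) in genes with at least 10 in at least 3 libraries. The interaction fit had 2 residual degrees of freedom. The code was tested on simulated data. Coordinates are whole gene spans and exon lengths are unions of exons, from GENCODE M21.

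Full statistics are given for called members (at most 16) and for the member of each role with the highest mean count, and for other lists at most 4 genes with the smallest adjusted p are named. Fen1, Foxj1, Aurka, Hdac6, Nedd9, Mia, the neighbouring genes and the values of Ttc21b in each library were given outside this rule, after their values were seen. The values of 2 members are not reported here, though counts and medians include them. Members and lists were chosen with earlier results of these data known. Alternatives covered pseudocount, filter, batch term, replicate block, scaling, batch and single libraries.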

Additional observations from a re-analysis of the deposited data

Results flagged for a closer look

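The interaction test of limma called 59 of 17278 genes for a genotype difference that differed between batches, and no member was among them. Of the genes in the marker and regulator lists, 6 were called. November minus February, on the log2 scale, the difference was -2.50 for Trp73 (adjusted p 0.046), -2.36 for Tmem212 (0.024), -1.97 for Ak7 (0.029), -1.72 for Cfap126 (0.049), -1.91 for Dynlrb2 (0.029) and -1.70 for Foxj1 (0.032). These are genes of motile cilia and of their regulation. Each was lowest in THC 1 among the THC libraries, and Foxj1, for example, had 289 normalized counts there and 746 and 684 in the November THC libraries. February has 1 library per genotype, so the batch and that library cannot be told apart.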

How the results depend on the processing

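Across 14 alternatives 6 of the 11 calls held (Ift80, Bbs4, Nphp4, Ift74, Bbs9, Bbs2), and no called member changed sign. The November fit and the fits without THC 1 or without TKO 1 rest on the same libraries and give the same changes. They are therefore not separate checks. Ift22 lost its call in 3 alternatives, Wdr35 in 4, Arl6 in 6 and B9d1 in 9, and the cause was not tested. The members called higher were 5 to 9 with 1 library left out (5 without THC 2) and those called lower 2 to 3. The median log2 change was 0.082 in November libraries alone and 0.082 to 0.32 with 1 library left out. In November alone 6 uncalled members turned negative: Bbs1 -0.030, Ift27 -0.027, Ift46 -0.16, Ift172 -0.092, Tctn1 -0.017 and Tctn2 -0.056. With 1 library left out, 9 uncalled members crossed 0: Bbs1 -0.030 to 0.33, Ift27 -0.11 to 0.25, Ift46 -0.16 to 0.15, Ift172 -0.092 to 0.10, Tctn1 -0.017 to 0.46, Tctn2 -0.056 to 0.35, Ift122 -0.22 to 0.071, B9d2 -0.14 to 0.078 and Ift88 -0.30 to 0.060. Where this left 1 November library of a genotype, that library was assumed to vary like the others. Without THC 1 or TKO 1, the remaining February library was taken up by the batch term and had no weight in the genotype difference. Beyond the February batch of replicate 1, the labels give no pairing by replicate number. Deviations of same-numbered libraries from their group means correlated at 0.23, -0.11 and 0.14. These deviations include the batch difference, so they cannot settle whether replicates were paired. Within November alone, which leaves out the batch difference, the deviations of THC 2 and TKO 2 correlated at -0.087. That value gave no sign of pairing, though it rests on 2 libraries per genotype. With the replicate block 7 members were higher and 3 lower (B9d1 lost its call, adjusted p 0.077), and over all genes 2147 and 1922, against 2469 and 2345. Without a batch term Arl6 and B9d1 lost their calls (adjusted p 0.056 and 0.072), and 6 members were called higher and 2 lower. TMM scaling shifted the median of all genes by 0.00046 on the log2 scale. The edgeR and DESeq2 alternatives were not run. For Nphp4, with 51.1 to 79.8 counts in THC, depth limits the precision.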
